A study of Mus musculus with 88 samples.

Results

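Blood transcripts of complement receptors and regulators were followed in lupus-prone SNF1 mice. The genes were taken by symbol. They are C5ar1, C3ar1, Cfp, Cd55, Cr1l, Cd59a and C3, of which 6 of the 7 had a probe set assigned to a single gene, out of 17097 such genes on the array. C3 had none in the probe annotation used and is not analysed here. Each gene was read from its brightest single-gene probe set, and its further probe sets served as a check.

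Female SNF1 mice, the F1 hybrids of SWR and NZB, were injected intraperitoneally with the oil pristane, which induces lupus-like autoimmunity in mice, and whole blood was taken at weeks 2, 4, 8, 12 and 14. Age-matched untreated SNF1 mice were sampled at the same 5 weeks. A further group of SNF1 mice, labelled spontaneous disease at week 36, had received no pristane and was selected for its proteinuria. Each of the 11 groups held 8 mice with 1 array per mouse, 88 arrays in all. Weeks 2 to 14 are times after injection, whereas week 36 gives the age of the mice. No untreated week 36 group without disease is among these samples, so age and disease cannot be told apart in that group.

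Complement is a chain of plasma proteins that is started by antibody, by sugars or by its own slow turnover, and that coats targets with fragments of C3. The small fragments released on the way, C3a and C5a, are read by the receptors C3ar1 and C5ar1 on myeloid cells, while properdin (Cfp) is a plasma protein that stabilises the alternative pathway convertase. Host cells are shielded by membrane regulators. Of these Cd55 speeds the decay of convertases, Cr1l (Crry, a rodent protein) is a cofactor for cleavage of deposited C3b and C4b, and Cd59a stops the membrane attack complex on the cell surface. Complement is consumed by immune complexes in lupus, and most of its soluble proteins come from the liver rather than from blood cells.

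The sequences upstream of the start sites are shown for C5ar1 and Cfp, which both passed at weeks 4 and 12, and for Cd55 and Cd59a, whose patterns differed from them and from each other. Each is the stretch of 250 bases before the RefSeq start site on build GRCm38.p6, read 5′ to 3′ on the strand of the gene, with matches to the motifs searched in capitals. The stretches are chr7:16259339-16259588 on the minus strand for C5ar1, chrX:20931556-20931805 on the minus strand for Cfp, chr1:130462745-130462994 on the minus strand for Cd55 and chr2:104095551-104095800 on the plus strand for Cd59a.
C5ar1: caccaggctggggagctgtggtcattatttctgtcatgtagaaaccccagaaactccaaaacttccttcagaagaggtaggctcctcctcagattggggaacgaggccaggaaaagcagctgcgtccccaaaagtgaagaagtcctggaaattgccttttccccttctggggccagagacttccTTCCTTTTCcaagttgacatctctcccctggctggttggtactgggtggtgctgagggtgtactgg
Cfp: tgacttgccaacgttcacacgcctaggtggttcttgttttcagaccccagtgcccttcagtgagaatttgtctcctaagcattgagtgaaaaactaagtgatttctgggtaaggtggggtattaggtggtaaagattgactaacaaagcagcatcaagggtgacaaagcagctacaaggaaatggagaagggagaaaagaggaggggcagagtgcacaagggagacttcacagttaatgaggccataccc
Cd55: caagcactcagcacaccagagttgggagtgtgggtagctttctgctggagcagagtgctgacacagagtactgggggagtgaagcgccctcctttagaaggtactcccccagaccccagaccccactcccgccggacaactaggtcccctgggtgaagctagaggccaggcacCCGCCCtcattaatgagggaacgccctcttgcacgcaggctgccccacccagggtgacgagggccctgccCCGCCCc
Cd59a: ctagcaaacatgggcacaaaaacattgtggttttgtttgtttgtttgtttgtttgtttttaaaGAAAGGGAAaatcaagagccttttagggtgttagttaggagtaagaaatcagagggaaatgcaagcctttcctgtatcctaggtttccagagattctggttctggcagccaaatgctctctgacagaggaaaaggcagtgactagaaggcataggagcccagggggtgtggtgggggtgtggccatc

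The motifs were searched on both strands in the same 250 bases of 32851 RefSeq promoters, and all 6 measured genes were matched by symbol. They were an interferon response element core (GAAANNGAA, in 7.13% of promoters), an interferon gamma activated site (TTCNNNGAA, 7.02%), a PU.1 site (GAGGAAG, 10.6%), a C/EBP core (TTGCNNAA, 9.56%), a GC box (GGGCGG, 32.7%), a GATA site (AGATAA, 9.99%), a TATA box (TATAAA, 12.4%) and an E-box (CACGTG, 6.02%). C5ar1 held the interferon response core on the reverse strand at -66 to -58 from the start site, and Cd59a held it on the forward strand at -187 to -179. Cd55 held 2 GC boxes, both on the reverse strand, and its stretch had a GC content of 64%, against a median of 52.4% over all promoters. C3ar1, whose sequence is not printed, held a GC box, 2 GATA sites and a TATA box that shares its last base with the first of the GATA sites. No motif of this set was found in Cfp or Cr1l. These are matches of letters only.

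The arrays carried the genes that define blood. Over the 88 arrays the mean log2 signal was 13.5 for the haemoglobin gene Hba-a1, 11.8 for the neutrophil alarmin S100a8, 9.99 for the B cell receptor component Cd79a and 9.74 for the platelet integrin Itga2b. Against a median over probe set means of 3.91, the mean was 10.2 for Cd59a, 9.51 for C5ar1, 8.35 for Cd55, 8.07 for Cr1l and 7.70 for Cfp. C3ar1 was dim at 3.72, below that median, and its changes were read near the low end of the scale. Signals of different probe sets cannot be ranked as amounts of RNA. Correlations between arrays ran from 0.90 to 0.994, and replicate 7 of the pristane group at week 14 had the lowest mean correlation with its own group, 0.944. Of the 40 pristane-treated mice, replicate 1 of week 4 stood apart in its interferon-induced list score, 5.73, while all others had 8.21 or more and the untreated mice of that week had 5.28 to 6.14. The member calls of week 4 are therefore also given without it. In bulk blood, fewer cells of a type and less RNA per cell cannot be told apart.

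**Figure D1:**
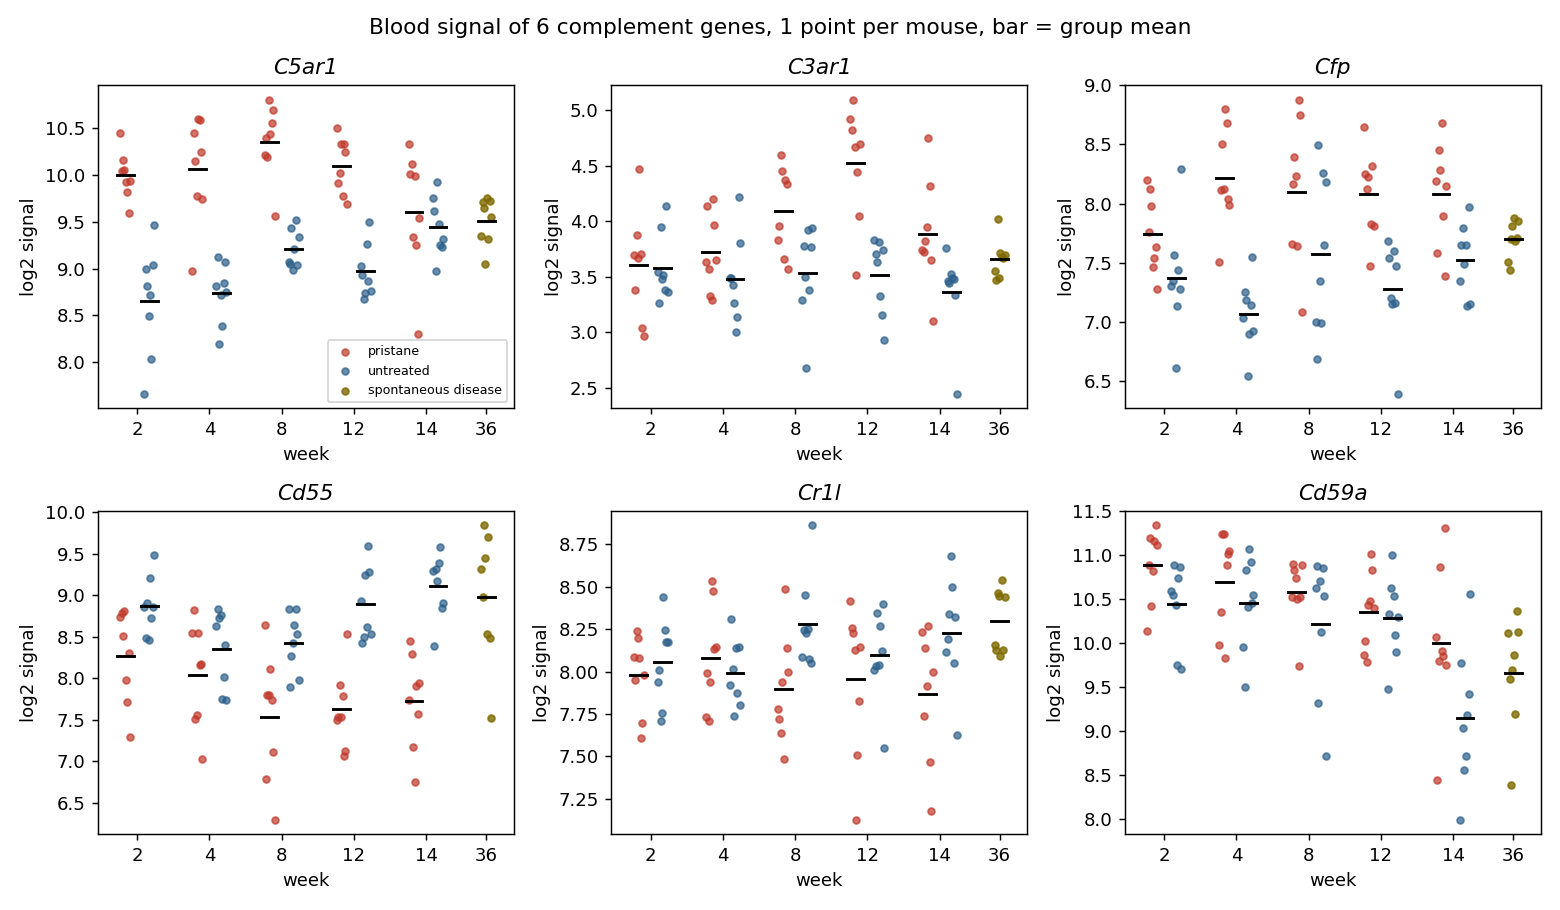
Log2 signal of the 6 measured genes (vertical axis) by week (horizontal axis), with 1 point per mouse, a black bar for the group mean, pristane-treated mice in red, untreated mice in blue and mice with spontaneous disease at week 36 in ochre (n = 8 per group). C5ar1 points of pristane-treated mice lie above all untreated points at weeks 2, 8 and 12, and Cd55 means of pristane-treated mice lie below the untreated means at every week.

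C5ar1, the C5a receptor that draws neutrophils and monocytes to sites of complement activation, was higher in pristane-treated mice at weeks 2, 4, 8 and 12, while week 14 did not pass. At week 2 the lowest, median and highest log2 signals were 9.60, 9.99 and 10.4 in pristane-treated mice, against 7.66, 8.77 and 9.47 in untreated mice. All 8 treated mice lay above all 8 untreated mice, and 0.86% of all genes had groups without overlap in either direction. The difference was 2.54-fold (95% CI 1.94 to 3.34, adjusted p = 1.07e-06).

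At week 4 the C5ar1 signals were 8.98, 10.2 and 10.6 in pristane-treated mice, against 8.19, 8.78 and 9.12 in untreated mice, and 7 of 8 treated mice lay above every untreated mouse. The exception, replicate 1, also had the lowest neutrophil list score of its group, 8.56. The difference was 2.52-fold (1.92 to 3.30, adjusted p = 1.53e-06), and without replicate 1 the log2 change was 1.49 (adjusted p = 2.42e-08), against 1.33 with it. At week 8 the signals were 9.56, 10.4 and 10.8 with pristane, against 8.98, 9.14 and 9.52 without, with no overlap (as in 0.807% of all genes) and a 2.23-fold difference (1.70 to 2.92, adjusted p = 3.75e-05). At week 12 they were 9.69, 10.1 and 10.5 with pristane, against 8.68, 8.90 and 9.50 without, again with no overlap (0.889% of all genes) and a 2.19-fold difference (1.67 to 2.88, adjusted p = 6.34e-05).

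At week 14 the C5ar1 groups overlapped. The signals were 8.30, 9.77 and 10.3 in pristane-treated mice, against 8.98, 9.40 and 9.93 in untreated mice, and the log2 change was 0.16 (-0.23 to 0.56, adjusted p = 0.57). The treated group was wide (SD 0.66), with replicate 7 at 8.30 well under the other 7 mice. The change at week 14 was smaller than that at week 2 by a log2 difference of -1.18 (-1.74 to -0.63, adjusted p = 0.00489), and leaving out any array kept that adjusted p between 0.00173 and 0.0148. It did not hold on the further probe set (0.24, adjusted p = 0.544) or on the mean of both probe sets (-0.47, adjusted p = 0.109). Set against week 12 the difference was -0.97 (-1.52 to -0.42, adjusted p = 0.0423), and it missed the threshold when any 1 of 17 of the 32 arrays was left out (-0.78, adjusted p = 0.113, without replicate 7) and on the mean of both probe sets (-0.55, adjusted p = 0.0987).

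The group means behind these changes differed between weeks in both arms. The mean C5ar1 signal of untreated mice was 9.44 at week 14, against 8.97 at week 12 (log2 change 0.48, adjusted p = 0.237) and 8.65 at week 2 (0.79, adjusted p = 0.00345). The comparison with week 2 was chosen after the data were seen. In pristane-treated mice the mean was 9.61 at week 14, against 10.1 at week 12 (-0.49, adjusted p = 0.172). With the untreated mice of week 12 as the control for pristane at week 14, the log2 change was 0.64 (adjusted p = 0.0224), so the call at week 14 depended on the control week. A further, dimmer probe set for C5ar1 (mean 4.89) gave log2 changes of 0.0070 to 0.37 over the 5 weeks, none past the threshold.

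**Figure D2:**
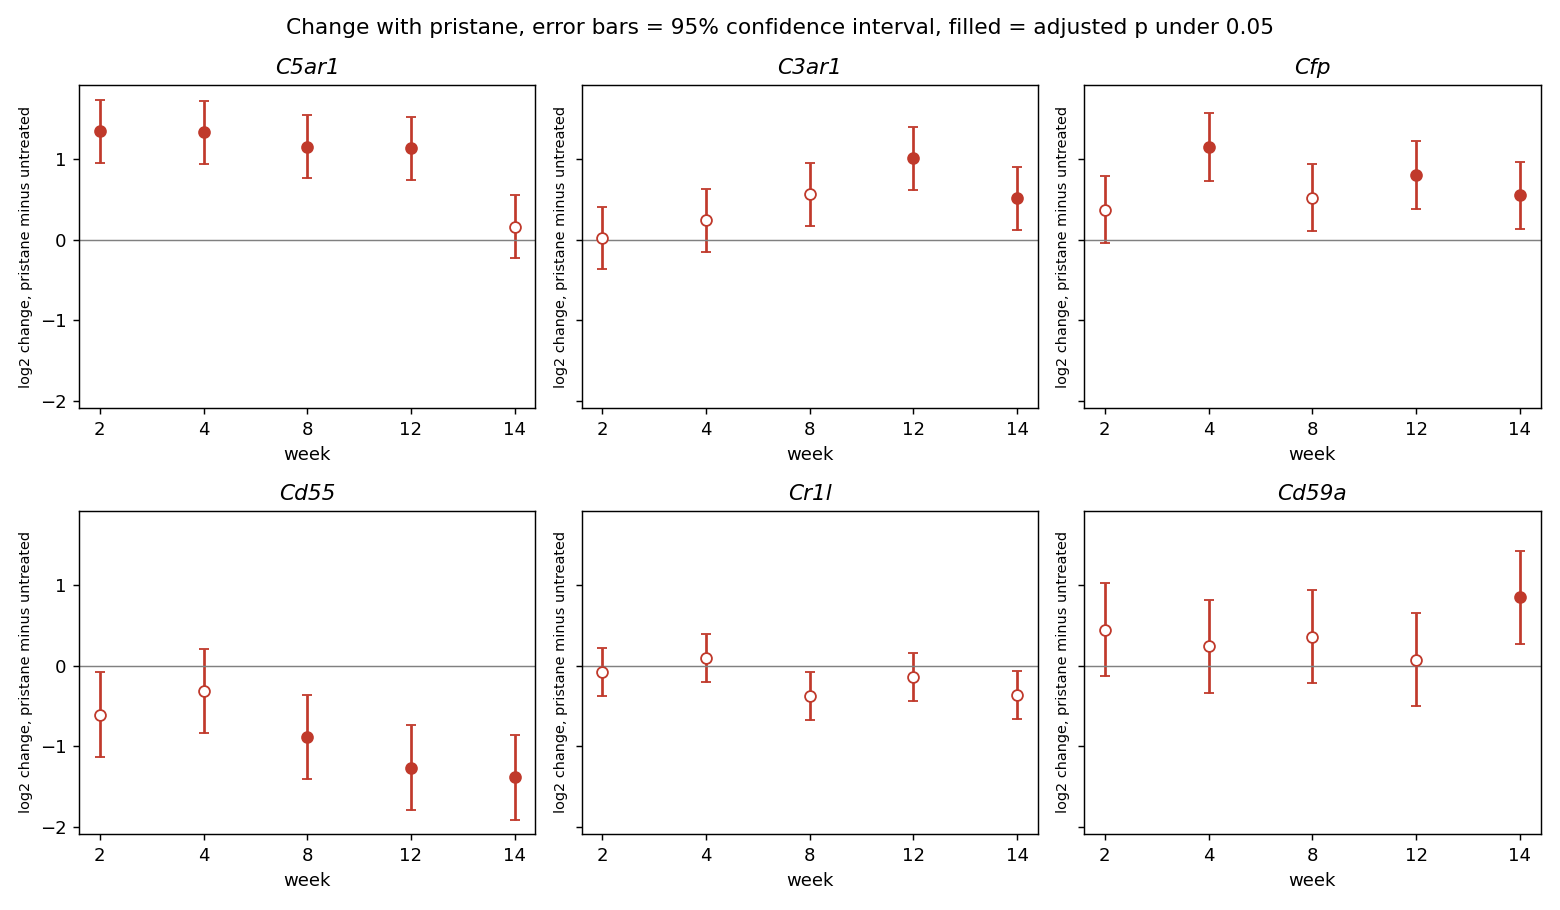
Log2 change of each gene, pristane-treated minus untreated (vertical axis), by week (horizontal axis), with 95% confidence intervals as error bars and filled points where the adjusted p was under 0.05 (n = 8 per group). C5ar1 stands at 1.35, 1.33, 1.16 and 1.13 in the first 4 weeks and at 0.16 at week 14, while Cd55 reaches -1.27 at week 12 and -1.39 at week 14.

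Signals of C3ar1, the receptor for C3a, were highest in pristane-treated mice at week 12. The lowest, median and highest values were 3.51, 4.68 and 5.10 with pristane, against 2.93, 3.67 and 3.83 without. All but 1 of the treated mice lay above every untreated mouse, and the difference was 2.02-fold (1.54 to 2.64, adjusted p = 0.000437). Both further probe sets passed at week 12 too, with log2 changes of 0.75 (adjusted p = 0.00686) and 0.72 (adjusted p = 0.0253). The values at weeks 2, 4 and 8 did not pass, with log2 changes of 0.023, 0.24 and 0.56.

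At week 14 the C3ar1 signals were 3.10, 3.78 and 4.75 in pristane-treated mice, against 2.44, 3.47 and 3.76 in untreated mice. The 1.43-fold difference was at the threshold (1.09 to 1.87, adjusted p = 0.0476) and lost it when any 1 of 12 of the 16 arrays was left out. Of the further probe sets, 1 gave 0.61 (adjusted p = 0.00936) and the other -0.14 (adjusted p = 0.644). On the brightest probe set, with the untreated mice of week 12 as the control, the log2 change was 0.37 and did not pass (adjusted p = 0.273). Pristane-treated mice were lower at week 14 than at week 12 (-0.65, adjusted p = 0.0464). The pristane change at week 14 minus that at week 12 did not pass (-0.50, adjusted p = 0.377).

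Properdin (Cfp), which neutrophils and monocytes store and release, was higher in pristane-treated mice at weeks 4 and 12. At week 4 its signals were 7.50, 8.12 and 8.80 with pristane, against 6.55, 7.09 and 7.55 without, and 7 of the 8 treated mice exceeded every untreated mouse. The difference was 2.22-fold (1.66 to 2.97, adjusted p = 0.000145), with a log2 change of 1.25 (adjusted p = 2.74e-05) without replicate 1 of the treated mice. Beside Cfp and C5ar1, no member passed at week 4 without that mouse. At week 12 the signals were 7.48, 8.17 and 8.65 with pristane, against 6.40, 7.34 and 7.68 without, a 1.75-fold difference (1.31 to 2.34, adjusted p = 0.0154). That call rested on untreated replicate 8, the lowest mouse. Without it the log2 change was 0.68 (adjusted p = 0.0644).

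At week 14 the Cfp signals were 7.39, 8.17 and 8.68 in pristane-treated mice, against 7.14, 7.57 and 7.97 in untreated mice. The 1.47-fold difference was at the threshold (1.10 to 1.96, adjusted p = 0.0493) and lost it when any 1 of 12 of the 16 arrays was left out. With the untreated mice of week 12 as the control the log2 change was 0.80 (adjusted p = 0.00591). That control group includes the low replicate 8. At weeks 2 and 8 the log2 changes were 0.37 (adjusted p = 0.371) and 0.52 (adjusted p = 0.227). The untreated mice of week 8 were the widest Cfp group, from 6.69 to 8.49.

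Cd55, which dismantles C3 and C5 convertases on host cells, was lower in pristane-treated mice late in the course. At week 12 its signals were 7.07, 7.53 and 8.53 with pristane, against 8.43, 8.77 and 9.59 without. In that week 7 of the 8 treated mice lay below every untreated mouse. The treated group was 2.41-fold lower (1.67 to 3.46, adjusted p = 0.0013).

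At week 14 the Cd55 signals were 6.75, 7.82 and 8.44 in pristane-treated mice, against 8.39, 9.23 and 9.58 in untreated mice, with 7 of 8 treated mice again below the untreated range. The treated group was 2.61-fold lower (1.82 to 3.76, adjusted p = 4.52e-05). The log2 change was -1.17 (adjusted p = 0.00107) when the untreated mice of week 12 were the control. The log2 changes at weeks 2 and 4 were -0.61 (adjusted p = 0.209) and -0.32 (adjusted p = 0.704). That at week 8, -0.89, was at the threshold (adjusted p = 0.0498) and lost it when any 1 of 12 of the 16 arrays was left out. The change at week 14 minus that at week 2 was -0.78 and did not pass (-1.52 to -0.037, adjusted p = 0.196).

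The 3 probe sets of Cd55 pointed the same way late in the course. The further set with the larger changes gave -1.02 at week 12 (adjusted p = 0.00613) and -1.26 at week 14 (adjusted p = 5.38e-05), and passed at week 4 (-0.83, adjusted p = 0.044). The other gave -0.44 and -0.56 at weeks 12 and 14, and passed at neither (adjusted p = 0.542 and 0.141).

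Cd59a, which blocks the last step of the membrane attack complex, passed the test at week 14. The signals were 8.44, 9.88 and 11.3 with pristane, against 7.99, 9.10 and 10.6 without, and the treated group was 1.80-fold higher (1.20 to 2.68, adjusted p = 0.0278). The groups overlapped widely. Leaving out any 1 of 5 arrays ended the call, and without pristane replicate 7, the highest mouse, the log2 change was 0.66 (adjusted p = 0.109). The others were pristane replicate 4 (0.72, adjusted p = 0.0814) and untreated replicates 1 (0.68, adjusted p = 0.0955), 4 (0.76, adjusted p = 0.0639) and 5 (0.78, adjusted p = 0.0571).

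The untreated mice of week 14 were the lowest of the 11 groups for Cd59a. Their mean was 9.15, against 10.3 in untreated mice of week 12 (log2 change -1.13, adjusted p = 0.0736) and 10.4 in those of week 2 (-1.29, adjusted p = 0.00147, chosen after the data were seen). Set against the untreated mice of week 12, pristane-treated mice of week 14 had a log2 change of -0.28 (adjusted p = 0.649), with the opposite sign. At weeks 2, 4, 8 and 12 the pristane changes were 0.44, 0.24, 0.36 and 0.071, and the change at week 14 minus that at week 12 was 0.77 (adjusted p = 0.345). The further probe set gave 0.60 at week 14 (adjusted p = 0.0933).

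Cr1l did not pass at any of the 5 weeks on its brightest probe set. Its group means stayed within 7.87 and 8.30. At week 14 the signals were 7.18, 7.96 and 8.27 in pristane-treated mice, against 7.63, 8.26 and 8.68 in untreated mice (log2 change -0.36, -0.66 to -0.065, adjusted p = 0.0703). The probe sets of Cr1l disagreed, with -0.81 (adjusted p = 0.0138) and 0.10 (adjusted p = 0.736) on the further 2 at that week.

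By group mean, C5ar1 was ordered with the pristane groups of weeks 8, 12, 4 and 2 on top (10.4, 10.1, 10.07 and 9.999), then pristane at week 14 (9.61), spontaneous disease (9.51) and the untreated groups of weeks 14, 8, 12, 4 and 2 (9.44, 9.20, 8.97, 8.74 and 8.65). The step below pristane at week 2 (0.39, SD 0.25) and that below untreated week 8 (0.23, SD 0.20) exceeded the SD of the upper group, and no other neighbouring pair did. Cd55 was lowest in pristane-treated mice of week 8 (7.53) and highest in untreated mice of week 14 (9.11). Among its neighbours, only the step below untreated week 2 (0.45, SD 0.34) exceeded the SD of the upper group. For C3ar1, Cfp, Cr1l and Cd59a no neighbouring groups were further apart than that SD.

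Spontaneous disease was compared with untreated mice of week 14, the closest untreated group in age. Those mice were still younger, and their week counts from injection, so the week numbers do not give the gap in age. No member passed limma's test, and neither did any of the 17097 genes (0%). At an unadjusted p under 0.05, 594 genes and 0 members were counted. The C5ar1 signals were 9.05, 9.60 and 9.75 in mice with spontaneous disease, against 8.98, 9.40 and 9.93 in untreated mice (log2 change 0.068, -0.32 to 0.46). Those of Cd55 were 7.52, 9.15 and 9.84, against 8.39, 9.23 and 9.58 in untreated mice (-0.13, -0.66 to 0.39). The log2 changes of the others were 0.51 for Cd59a, 0.29 for C3ar1, 0.17 for Cfp and 0.070 for Cr1l. Against the mean of all 5 untreated groups that of C5ar1 was 0.51 (adjusted p = 0.0775).

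Pristane-treated mice of week 14 and mice with spontaneous disease differed in Cd55. The treated group was 2.39-fold lower (1.66 to 3.43, adjusted p = 0.000608). Of the further Cd55 probe sets, 1 gave -0.96 (adjusted p = 0.00484) and the other -0.66, which did not pass (adjusted p = 0.12). The groups overlapped, since 1 mouse with spontaneous disease had 7.52, and 2 of the 8 treated mice lay below it. Cr1l was at the threshold, with signals of 7.18, 7.96 and 8.27 in pristane-treated mice, against 8.09, 8.30 and 8.54 in spontaneous disease (1.35-fold lower, 1.10 to 1.66, adjusted p = 0.0496). It lost the call without pristane replicate 7 (-0.33, adjusted p = 0.169), as it did without any 1 of 9 other arrays, and a further Cr1l probe set had the opposite sign (0.33, adjusted p = 0.271). In this comparison 2 of 6 members passed, both lower in the pristane group. Of all 17097 genes 10% passed in either direction, with 955 higher and 756 lower in the pristane group.

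The counts of members were set beside the shares of all genes that passed. At week 2, 1 of 6 members was higher and 0 lower, against 2.29% and 1.29% of all genes. At week 4, 2 were higher and 0 lower, against 2.18% and 0.801% (without overlap, 0.234%). At week 8, 1 was higher and 1 lower, against 1.85% and 0.778%. At week 12, 3 were higher and 1 lower, against 2.7% and 1.06%. At week 14, 3 were higher and 1 lower, against 12.7% and 9.72% (without overlap, 2.15%).

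The split of these all-gene counts depended on how the arrays were scaled. At week 2, 391 genes were higher and 221 lower as deposited, 498 and 111 with each array centred on its median, and 304 and 739 with each array centred on its brightest probe sets, which also moved the median change of all genes to -0.14, against -0.025 as deposited. With the brightest probe sets as the scale the counts were 365 and 202 at week 4 (372 and 137 as deposited), 309 and 241 at week 8 (317 and 133) and 446 and 287 at week 12 (462 and 182). For week 14 minus week 2 they were 717 and 457 as deposited, 420 and 532 with median centring and 1179 and 296 with the brightest probe sets, and for untreated week 14 against week 12 they were 6 and 6, 12 and 6 with the brightest, and 15 and 22 with quantile normalisation. No call of a member changed sign under these scalings.

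The median log2 change of the 6 members was 0.34 at week 14, against 0.12 over all genes. Untreated mice of week 14 against those of week 12 gave 0 members by limma and 0.0702% of all genes, and 2 members had an unadjusted p under 0.05. Against week 2, C5ar1 and Cd59a passed, in opposite directions, among 24.3% of all genes. The change with pristane at week 14 differed from that at week 12 in 2.15% of genes and from that at week 2 in 6.87%, with C5ar1 the only member in each.

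Marker genes of blood cells moved alongside the members. Of 8 measured neutrophil markers, 8, 7, 7, 8 and 7 were higher in pristane-treated mice at weeks 2, 4, 8, 12 and 14 and none was lower. The mean log2 signal of the list ran from 9.16 to 10.06 in pristane-treated mice at week 2, against 7.59 to 8.97 in untreated mice. At week 14 it ran from 8.53 to 10.2, against 8.05 to 9.33. None of the 8 was dim. C5ar1 tracked this list over the 88 arrays (Pearson r = 0.88, and 0.76 after each group's mean was removed), and so did Cfp (0.75 and 0.58). With the 7 measured classical monocyte markers the values were 0.45 and 0.42 for C5ar1, and 0.56 and 0.58 for Cfp. Within groups Cfp thus followed the monocyte list as closely as the neutrophil list. At week 14 the neutrophil list still had a median change of 1.08 while that of C5ar1 was 0.16. The mouse with the lowest C5ar1 signal in that treated group, replicate 7, also had its lowest neutrophil score. The classical monocyte list had median changes with pristane of 0.36, 0.30, -0.033, 0.31 and -0.025 at weeks 2, 4, 8, 12 and 14. In untreated mice of week 14 against week 12 its median change was 0.61, beside 0.48 for C5ar1. The part of either list in the C5ar1 change at week 14 was not tested.

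B cell markers went down in part. Of 8 measured, 3 were lower at week 4, 2 at week 12 and 5 at week 14, and none was higher at any week. The score ran from 7.68 to 8.27 in pristane-treated mice at week 12, against 8.02 to 8.80 in untreated mice, and from 7.26 to 8.70 at week 14, against 8.33 to 8.89. Pax5 alone was dim. Cd55 followed the B cell list with r = 0.84 (0.80 within groups), and its change exceeded the list's median at both weeks (-1.27 against -0.48 at week 12, -1.39 against -0.74 at week 14). A median does not show how far single B cell genes moved. Whether Cd55 changed beyond them was not tested. T cell markers were lower in 2 and 4 of 8 at these weeks, and Cd55 correlated with that list at 0.51. Of the 6 NK cell markers, 2, 1, 3, 0 and 3 were lower at weeks 2, 4, 8, 12 and 14 and 1 was higher at week 14, and Cd55 correlated with that list at 0.35 (0.042 within groups).

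Interferon-induced genes were higher at every week, in 7, 7, 6, 7 and 6 of the 7 measured at weeks 2, 4, 8, 12 and 14, and none was lower. The list score averaged 9.06 in pristane-treated mice at week 2, against 5.53 in untreated mice, and 8.64 at week 14, against 6.25. C5ar1 correlated with this list at 0.79 over the 88 arrays and at 0.35 within groups, Cfp at 0.69 and 0.49, and Cd55 at -0.57 and -0.042. The part of these genes in the member changes was not tested.

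Cd59a followed the erythroid markers, with r = 0.93 over the 88 arrays and 0.91 within groups. The erythroid score was 8.71 in pristane-treated mice of week 14, against 7.90 in untreated mice, and 2 of the 7 measured erythroid markers passed in that comparison, both higher. It ran from 8.15 to 10.1 in the treated group, against 7.17 to 8.79 in the untreated group, and Rhag alone was dim. The untreated mice of week 12 had a score of 8.73, so the erythroid list, like Cd59a, was lowest in untreated mice of week 14. These correlations are descriptions over arrays that share groups and array-wide spread. The interquartile range of an array correlated with Cd59a at -0.79 and with Cd55 at 0.61. The part of cell composition in the member changes was not tested. Array spread entered only as a covariate in an alternative fit. Of 17 member calls over the 10 comparisons, that fit kept 14 and lost 3. It gained 2 calls and turned the sign of 6 values.

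**Figure D3:**
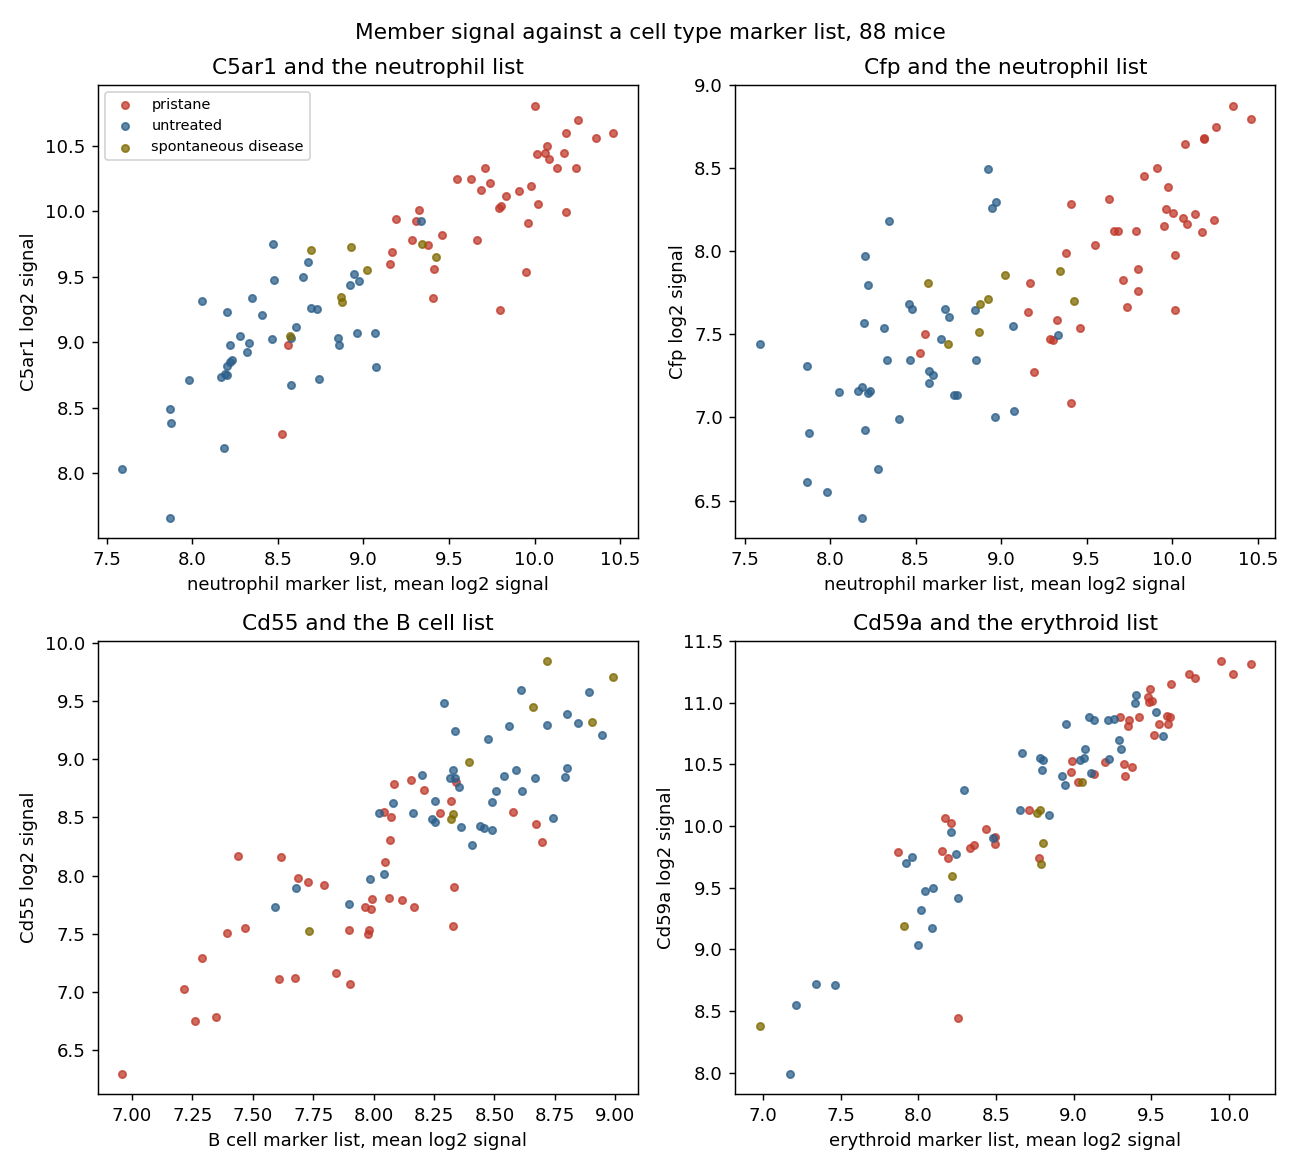
Log2 signal of 4 genes (vertical axes) against the mean log2 signal of a cell type marker list (horizontal axes), with 1 point per mouse and 88 mice in each panel, pristane-treated in red, untreated in blue and spontaneous disease in ochre. The points of Cd59a lie closest to a line with its erythroid list (r = 0.93), followed by C5ar1 with the neutrophil list (0.88), Cd55 with the B cell list (0.84) and Cfp with the neutrophil list (0.75).

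The genes most like each member were ranked by Pearson's r over the 88 arrays, among 10104 genes above the median signal. C5ar1 was closest to Ifitm2, an interferon-induced membrane protein (r = 0.91), Marcks (0.89) and Il13ra1, a chain of the interleukin-13 receptor (0.89). Cfp was closest to Pglyrp1, a peptidoglycan recognition protein of neutrophil granules (0.81), Pygl, the liver-type glycogen phosphorylase (0.81), and Slc15a3 (0.80). Cd55 was closest to Ttpal (0.82), the MHC class II chain H2-Aa (0.81) and the sialyltransferase St6gal1 (0.81).

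Cd59a was closest to Ermap, an erythroid membrane protein (0.94), the nucleotidase Nt5c3 (0.93) and Bsdc1 (0.93). The likeness of the last 2 members was looser. C3ar1 was closest to Rab44 (0.64), Trp53inp2 (0.61) and Ms4a2, a chain of the high-affinity IgE receptor of basophils and mast cells (0.59), and Cr1l to the GTPase Rac2 (0.64), Cdc42se1 (0.62) and Idnk (0.60). Among the members themselves, C5ar1 and Cfp were the closest pair (0.71, and 0.52 within groups). The lowest coefficients were those of Cd59a with Cr1l (-0.48) and with Cd55 (-0.48).

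The wider complement list held 56 genes, of which 46 were measured and 30 of those lay below the median signal. Beside the members, 40 genes were measured. Of these 1 was higher and 1 lower with pristane at week 2 (against 2.29% and 1.29% of all genes), 1 and 0 at week 4 (2.18% and 0.801%), 1 and 0 at week 8 (1.85% and 0.778%), 3 and 1 at week 12 (2.7% and 1.06%), and 10 and 2 at week 14 (12.7% and 9.72%). The median change of the whole list at week 14 was 0.25, against 0.12 over all genes. Of the 10 genes higher at week 14, only Clu and Colec11 lay above the median signal. The 6 liver markers, a gauge of hepatic RNA, had group mean scores of 3.29 to 3.67, and Alb averaged 4.19. At week 14 their score was 3.59 with pristane and 3.29 without, 2 of the 6, Apoa1 and Ttr, were higher, and the median change was 0.29, against 0.12 over all genes. Their part in the changes of the list was not tested.

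Among the receptors, Itgam, the alpha chain of complement receptor 3 on myeloid cells, was 2.21-fold higher with pristane at week 4 (means 4.92 with pristane and 3.78 without, adjusted p = 0.000294) and also passed at weeks 8 (1.74-fold) and 12 (1.77-fold). Cd93, a receptor of myeloid cells and endothelium, was 1.84-fold higher at week 12 (adjusted p = 0.00584). Cr2, the receptor for C3d on B cells, went the other way. It was 2.44-fold lower at week 14 (means 7.30 with pristane and 8.58 without, adjusted p = 5.83e-05), 1.87-fold lower at week 12 (adjusted p = 0.023) and 1.76-fold lower at week 2 (adjusted p = 0.0478).

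Of the soluble regulators, Clu (clusterin, which binds the terminal complex and is also carried by platelets) was 1.79-fold higher at week 14 (means 11.6 with pristane and 10.8 without, adjusted p = 1e-07). All 7 measured platelet markers were higher in that comparison, and their score ran from 10.4 to 11.4 with pristane, against 9.71 to 10.4 without. In the lectin pathway Colec11 was 1.59-fold higher at week 14 (adjusted p = 0.000772), and the dim ficolin gene Fcnb passed at weeks 2, 12 and 14 (log2 changes 0.80, 0.88 and 0.58). Cd55b, the neighbour and paralog of Cd55, was dim (mean 2.95) and 1.68-fold lower at week 14 (adjusted p = 0.00539). Probe sets of paralogs can share signal, so the pair is uncertain as separate measurements.

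**Figure D4:**
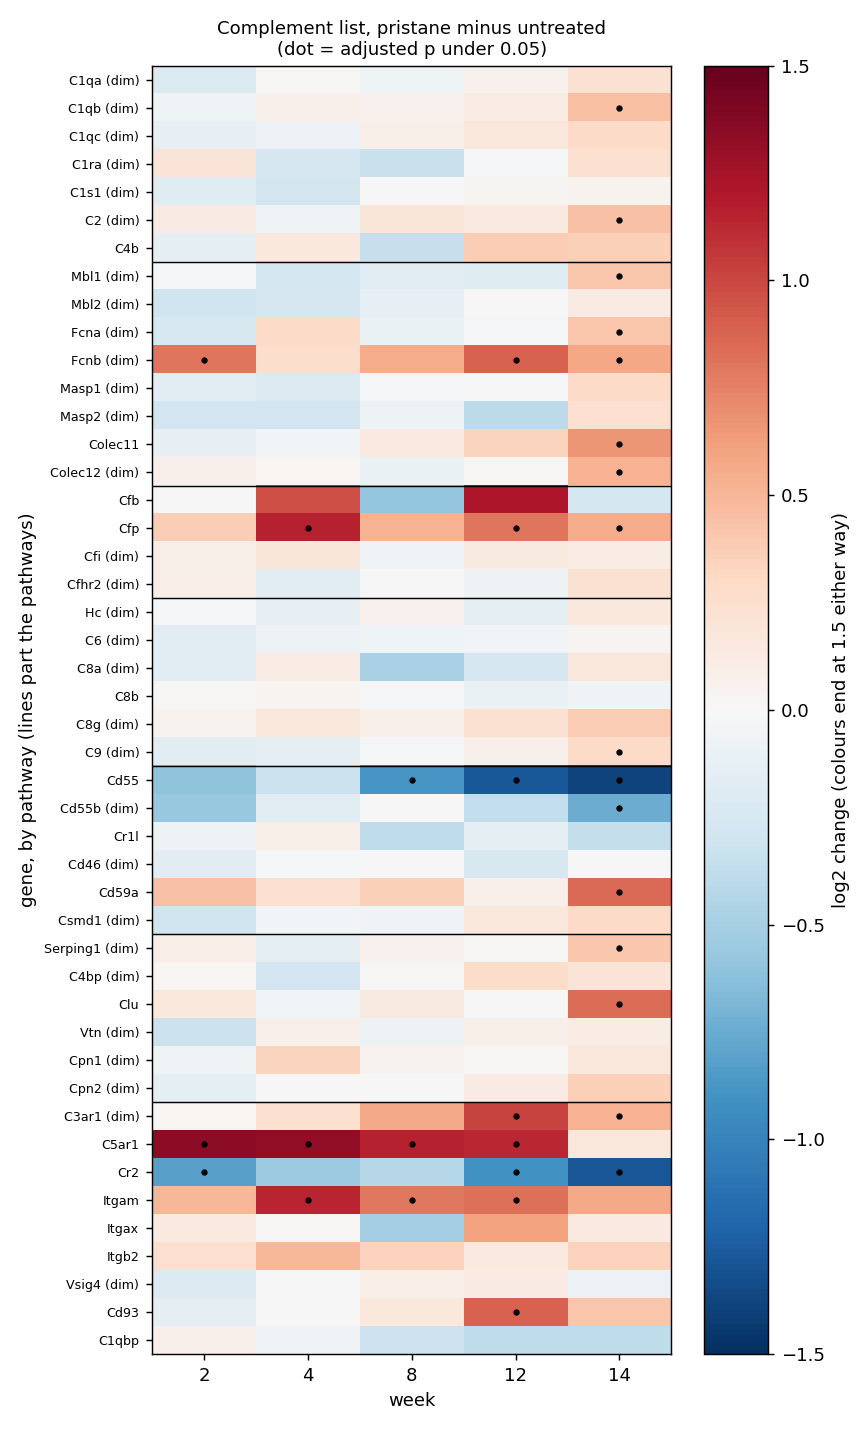
Log2 change, pristane-treated minus untreated (colour, red higher and blue lower), of the 46 measured complement genes (rows, grouped by pathway, with dim genes marked) at 5 weeks (columns), with a dot where the adjusted p was under 0.05 (n = 8 per group). C5ar1 and Itgam are red in the middle weeks, Cd55 and Cr2 are blue at week 14 (-1.39 and -1.29), and most red dots of week 14 outside the members fall on dim genes.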

How the data were processed

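Whole blood RNA of 88 mice was measured on Affymetrix HT MG-430 PM arrays, 1 per mouse. The authors summarised the probes of each set with RMA, and the deposited values are log2 signals from 0.736 to 13.8, used as deposited. The labels give no batch or scan date, and precision is limited by how many arrays each group holds.

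Of 45141 probe sets, 104 controls were left out. The probe annotation paired 28898 of the other 45037 with 1 gene, 551 with several and did not list 15588. One linear model with a mean per group was fitted with limma 3.58.1 in R 4.3.3 (residual df 77, prior df 5.81). Adjustment of p was by Benjamini-Hochberg over the 45037 probe sets in each of 10 comparisons, and a gene passed at an adjusted p under 0.05. The fit was run on simulated arrays with larger changes than the member calls near the threshold, so that run does not bear on those calls. Intervals are 95% and moderated. List scores are mean log2 signals.

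The named genes were the members, the 3 genes most correlated with each (clones and predicted genes left out), and complement list genes that passed. The plan set at most 6 of the last, by moderated t, and more than that are named here. The members and lists were chosen with earlier results of these data known. Alternatives were 3 other scalings, an array-spread covariate, a filter on dim probe sets, robust moderation, a fit of the compared groups only, the replicate number as a block, the mean of a gene's probe sets, other control weeks, and leaving out each array. Replicate numbers of the labels were not treated as pairs in the main fit. Of 40 same-numbered pairs of samples, 11 correlated above 0.1. Differently numbered samples were not compared, so whether the numbers link samples is not settled.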

Additional observations from a re-analysis of the deposited data

Results flagged for a closer look

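Dixon's test at the 95% level was run on the 66 groups of 8 signals, and 5 held a mouse apart from the rest. Chance sets about 1 in 20 groups apart. Untreated replicate 8 of week 12 was lowest for Cr1l (7.55, with the nearest mouse at 8.01) and for Cfp (6.40, nearest 7.16). C3ar1 had a high mouse in spontaneous disease, replicate 3 (4.02, nearest 3.71), and a low one in untreated week 14, replicate 8 (2.44, nearest 3.33). Cd59a had a low mouse in pristane week 8, replicate 6 (9.74, nearest 10.5). The arrays of untreated replicate 8 at weeks 12 and 14 also stood apart as a whole. They had the lowest interquartile range (3.10 and 3.09) and the lowest mean correlation with their own group (0.970 and 0.962). The arrays of the other flagged mice were lowest of their group in neither.

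The change of C5ar1 with pristane differed between weeks by the test of the difference itself. It was smaller at week 14 than at week 12 (log2 difference -0.97, limma adjusted p = 0.0423) and than at week 2 (-1.18, adjusted p = 0.00489). The further, dimmer probe set of C5ar1 gave -0.12 against week 12 (adjusted p = 0.835) and 0.24 against week 2 (adjusted p = 0.544), and the mean of both probe sets gave -0.55 (adjusted p = 0.0987) and -0.47 (adjusted p = 0.109), so neither difference passed on them. The difference from week 12 also missed the threshold without any 1 of 17 of the 32 arrays.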

How the results depend on the processing

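Of 748 member values under other settings, 657 kept their direction and side of the threshold, 41 lost it, 13 gained it and 37 changed sign. Of the 37, 4 were changes of a value that had passed: C3ar1 at week 14 on a further probe set (-0.14), Cd59a at week 14 against untreated week 12 (-0.28), Cr1l in pristane week 14 against spontaneous disease on a further probe set (0.33) and C5ar1 in week 14 minus week 2 on its further probe set (0.24). The other 33 were of values that had not passed.

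Further probe sets changed sign in 18 cases. Beside those named, Cr1l turned to 0.35, 0.27, 0.27 and 0.099 at weeks 2, 8, 12 and 14 and to -0.35 and -0.23 in spontaneous disease against untreated week 14. C3ar1 turned to -0.16 and -0.12 at weeks 4 and 8, to -0.36 in pristane week 14 against spontaneous disease, to 0.27 in untreated week 14 against week 12 and to -0.48 in week 14 minus week 2. Cd55 turned to 0.082 at week 4, to 0.10 in spontaneous disease against untreated week 14 and to -0.093 in untreated week 14 against week 12, where C5ar1 turned to -0.26. With the interquartile range as a covariate, Cd59a turned to -0.097 at week 12, to -0.070 in pristane week 14 against spontaneous disease and to -0.23 in week 14 minus week 2, and Cd55 to 0.011 in spontaneous disease against untreated week 14, to -0.17 in untreated week 14 against week 12 and to 0.21 in week 14 minus week 12. The mean of probe sets turned Cr1l to 0.029 at week 12 and to -0.17 in spontaneous disease against untreated week 14. Scaling on the brightest probe sets turned C3ar1 to -0.091 at week 2, and quantile normalisation turned Cd59a to -0.020 at week 12. Against all 5 untreated groups, spontaneous disease gave 0.25 for Cd55 and -0.45 for Cd59a. Leaving out 1 array gave -0.10 to 0.11 for C3ar1 at week 2, -0.044 to 0.17 for Cd59a at week 12, -0.26 to 0.076 for Cd55 and -0.016 to 0.13 for Cr1l in spontaneous disease against untreated week 14, -0.0065 to 0.28 for C5ar1 in pristane week 14 against spontaneous disease and -0.22 to 0.020 for Cd55 in week 14 minus week 12.

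The larger moves in the counts of members passed were as follows, and smaller moves are not listed. At week 2 the count was 2 with the interquartile range as a covariate. At week 8 it was 1 with median centring, robust moderation, only the compared groups or the mean of probe sets. At week 14 it was 2 with median centring and with only the compared groups. For pristane week 14 against spontaneous disease it was 1 with scaling on the brightest probe sets, the interquartile range covariate, only the compared groups and the mean of probe sets. For untreated week 14 against week 12 it was 1 with quantile normalisation, the filter on dim probe sets and only the compared groups. For week 14 minus week 12 it was 0 with median centring, the interquartile range covariate, only the compared groups and the mean of probe sets, and for week 14 minus week 2 it was 0 with the mean of probe sets. A count also hides a call lost where another was gained. Of the 17 calls, quantile normalisation lost 1 and gained 1. The interquartile range covariate lost 3 and gained 2, and the mean of probe sets lost 5 and gained 1. The cause was not tested.

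Leaving out 1 array at a time gave counts of 1 to 2 at week 8, 3 to 4 at week 12, 1 to 4 at week 14, 1 to 2 for pristane week 14 against spontaneous disease, 0 to 1 for untreated week 14 against week 12 and 0 to 1 for week 14 minus week 12. The other counts stayed the same. The call of Cd55 at week 8 was lost without pristane replicate 2, 3, 4, 6, 7 or 8 or untreated replicate 1, 3, 4, 5, 6 or 7 (log2 changes from -0.93 to -0.71, highest adjusted p = 0.165). At week 14 that of C3ar1 was lost without pristane replicate 1, 3, 4, 5 or 6 or untreated replicate 2 to 8 (0.38 to 0.54, highest 0.136), and that of Cfp without pristane replicate 1, 3, 4, 5, 6 or 8 or untreated replicate 1, 2, 4, 5, 6 or 8 (0.47 to 0.58, highest 0.106). Cr1l gained a call at week 14 without pristane replicate 1 (-0.41) or 5 (-0.42) or untreated replicate 8 (-0.45). In pristane week 14 against spontaneous disease it lost its call without pristane replicate 2, 4, 6, 7 or 8 or spontaneous replicate 2, 3, 4, 6 or 8 (-0.46 to -0.33, highest 0.169). Cd59a gained a call in untreated week 14 against week 12 without replicate 8 of week 14 (-1.33) or replicate 1 of week 12 (-1.25). That of C5ar1 for week 14 minus week 12 was lost without pristane replicate 4, 6, 7 or 8 or untreated replicate 1, 2, 4 or 5 of week 14, or without pristane replicate 1, 4, 6 or 7 or untreated replicate 2, 3, 4, 6 or 8 of week 12 (-0.96 to -0.78, highest 0.113).

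With the replicate number as a block, 1 member in place of 2 passed for pristane week 14 against spontaneous disease, and 16 of the 17 calls were kept. Same-numbered samples correlated at -0.24 to 0.55 (median 0.013), and differently numbered samples were not compared. The filter on dim probe sets left C3ar1 untested. Dim signal limits C3ar1 and most of the complement list.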
